A study of Mus musculus with 2 samples.

Results

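Lyve1, Folr2, Timd4, Cd163, Fcna and Mrc1, 6 of the 32285 genes in the count tables, are genes by which macrophages settled in a tissue are commonly told from cells newly derived from blood monocytes. They were followed in single cells of mouse perigonadal white adipose tissue (gWAT), chiefly in macrophages, defined as cells with a UMI (a unique molecular identifier, 1 counted RNA molecule) of 4 or more of the 7 genes C1qa, C1qb, C1qc, Pf4, Csf1r, Adgre1 and Cd68. The genes were selected with their levels in the diet groups and their joint detection in these cells already known, so those values describe the selection and test nothing.

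The cells came from male Cyp1a1Cre x R26LSL-eYFP mice, in which Cre made from the Cyp1a1 promoter switches on a permanent yellow fluorescent protein. The aryl hydrocarbon receptor (AHR) drives Cyp1a1, and eYFP+ cells are those that switched this gene on at some time, not necessarily at collection. For 12 weeks 1 group ate a low-fat diet (LFD, with 10% fat) and the other a high-fat diet (HFD, with 60% fat). Both were given FICZ, an agonist of AHR, at 10 mg/kg and were sampled 5 days later. Sorted eYFP+ cells of the stromovascular fraction gave 1 library per diet, each from 2 pooled mice that cannot be told apart in the data, and no group lacked the reporter, the sort or FICZ. There were no replicates, so no difference between the diets could be tested, and every interval below covers counting error only.

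LYVE1 is a receptor for hyaluronan, best known from lymphatic endothelium, and FOLR2 is a folate receptor anchored to the surface of macrophages. CD163 takes up haemoglobin bound to haptoglobin, MRC1 (CD206) is the mannose receptor, and TIMD4 binds phosphatidylserine on dying cells. FCNA (ficolin-A) is a secreted lectin that starts the lectin pathway of complement. In adipose tissue, macrophages with several of these products lie along blood vessels, whereas macrophages gathered around dying adipocytes carry lipid-handling genes such as Trem2, Cd9 and Spp1.

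In the GENCODE M21 annotation (GRCm38, the assembly called mm10), all 6 are protein-coding genes. Lyve1 lies at chr7:110850607-110863239 and Folr2 at chr7:101839988-101857194, both on the minus strand. Timd4 lies at chr11:46810800-46844332 and Cd163 at chr6:124304656-124330527, both on the plus strand. Fcna lies at chr2:25624666-25628030 on the minus strand, and Mrc1 at chr2:14229392-14332057 on the plus strand. RefSeq promoter windows, 250 bases before to 50 bases after a start site, were at hand for 5 of the 6 genes, with 2 windows for Folr2. Those of Folr2, Fcna and Mrc1, which were the genes most often found together in the same cells, are shown 5′ to 3′ on the strand of the gene, with AGGAAG (the core read by ETS factors such as PU.1, with its flanks) and TGCTGA (a MAF half-site) in capitals where found on either strand. They span chr7:101857141-101857440 on the minus strand, chr2:25627925-25628224 on the minus strand and chr2:14229164-14229463 on the plus strand (GRCm38.p6).
Folr2: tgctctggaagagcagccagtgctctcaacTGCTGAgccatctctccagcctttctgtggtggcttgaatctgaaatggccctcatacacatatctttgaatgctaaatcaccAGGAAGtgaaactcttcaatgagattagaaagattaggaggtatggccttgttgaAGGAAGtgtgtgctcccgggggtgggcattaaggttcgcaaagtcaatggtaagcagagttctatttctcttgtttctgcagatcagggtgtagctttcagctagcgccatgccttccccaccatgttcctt
Fcna: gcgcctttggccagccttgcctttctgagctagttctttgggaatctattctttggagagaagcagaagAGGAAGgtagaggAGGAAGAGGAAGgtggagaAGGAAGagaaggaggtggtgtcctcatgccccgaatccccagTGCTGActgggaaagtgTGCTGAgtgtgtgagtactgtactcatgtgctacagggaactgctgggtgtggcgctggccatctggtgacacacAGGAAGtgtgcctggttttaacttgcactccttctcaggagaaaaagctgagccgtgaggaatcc
Mrc1: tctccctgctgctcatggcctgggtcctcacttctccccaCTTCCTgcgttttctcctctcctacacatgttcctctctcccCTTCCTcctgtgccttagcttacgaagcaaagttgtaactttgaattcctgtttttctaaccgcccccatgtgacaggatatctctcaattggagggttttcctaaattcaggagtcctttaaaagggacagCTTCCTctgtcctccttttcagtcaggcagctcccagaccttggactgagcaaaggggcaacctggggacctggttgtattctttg
AGGAAG matched 2 times in the Folr2 window, 5 times in that of Fcna and 3 times in that of Mrc1, and 35.4% of 32851 windows of this length held it at least once. TGCTGA matched once in the Folr2 window shown and 2 times in that of Fcna, against 19.5% of all windows with a match. Over the 6 windows of the resident genes, each motif was found in 4, with no AGGAAG in that of Timd4 and neither motif in that of Cd163. In none of the 6 windows of the resident genes was there GCGTG, the core that AHR binds (32.4% of all windows), or the E-box CACGTG (7.15%), motifs that can share no more than an end base. These matches describe letters only, and the marked motifs did not overlap each other.

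After the filters of the study (500 to 40000 UMIs, at least 100 genes and under 12.5% mitochondrial UMIs), 10216 LFD and 8537 HFD cells remained. The macrophage gate took 543 LFD cells, 5.32% (95% exact binomial interval 4.89 to 5.77), and 540 HFD cells, 6.33% (5.82 to 6.86). Among cells with under 5% mitochondrial UMIs the order turned, with 5.21% (4.39 to 6.13) on LFD and 4.45% (3.78 to 5.20) on HFD. HFD gate cells were more deeply sequenced, with a median of 6796.5 UMIs against 4902, so shares of cells were compared after each cell had been thinned to 3000 UMIs. That left 445 LFD and 499 HFD cells, with 98 and 41 too shallow. The 7 gate genes were each found in at least 75.7% of gate cells of both libraries, whereas 36.3% of the LFD and 25.2% of the HFD gate cells also passed the gate of another cell class, most often the stromal and mesothelial gate (173 and 80 cells). The study also excluded doublets, but no doublet caller was run here, and results without these mixed cells are given with the alternatives. The libraries shared 27 barcodes, 1 of them in both macrophage gates.

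At the gate's edge, cells with exactly 3 gate genes (78 LFD, 35 HFD) lay just outside and cells with exactly 4 (79 LFD, 38 HFD) just inside. Mrc1 had 12.5 and 35.5 CPM (counts scaled to a library sum of 1000000) just outside, against 151 and 71.5 CPM just inside. Lyve1 had no UMI in either group of cells with 3 gate genes, none in LFD cells with 4 and 2 UMIs in HFD cells with 4.

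Lyve1 and Fcna were scarce in LFD macrophages and higher in HFD macrophages, where they were still found in a minority of cells, Folr2 was common in both and higher on HFD, and Mrc1 was common in both and nearly level. Summed over gate cells, Lyve1 had 29 UMIs in the LFD library, 8.95 CPM (95% Poisson interval 5.997 to 12.9), and 558 UMIs in the HFD library, 124 CPM (114 to 134). The HFD to LFD ratio of the Lyve1 levels was 13.8 (9.51 to 20.8). Fcna had 48 UMIs in the LFD library, 14.8 CPM (10.9 to 19.7), and 557 in the HFD library, 123 CPM (113 to 134), a ratio of 8.33 (6.20 to 11.4). The intervals of the libraries were far apart for both genes.

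Folr2 had 358 UMIs, 111 CPM (99.4 to 123), on LFD and 1160 UMIs, 257 CPM (243 to 272), on HFD, a ratio of 2.33 (2.06 to 2.63). Cd163 had 51 UMIs, 15.7 CPM (11.7 to 20.7), on LFD and 127 UMIs, 28.2 CPM (23.5 to 33.5), on HFD, a ratio of 1.79 (1.28 to 2.53). The Cd163 ratio became 2.88 when each cell's own CPM was averaged instead of the counts being summed. Mrc1 had 958 UMIs, 296 CPM (277 to 315), on LFD and 1658 UMIs, 368 CPM (350 to 386), on HFD, a ratio of 1.24 (1.15 to 1.35). Timd4 was near the limit of detection, with 4 UMIs in 4 LFD cells and 10 UMIs in 5 HFD cells, a ratio of 1.79 with an interval of 0.518 to 7.84 that shows no direction.

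Of the 5 members with at least 20 UMIs over both libraries, 3 (Lyve1, Fcna and Folr2) had a ratio of 2 or more and 0 had a ratio of 0.5 or less. Over all 11074 genes that passed this minimum, 3.21% were at 2 or more and 2.03% at 0.5 or less. Since the members were selected on this contrast, nothing is read from their count. Ordered from the highest ratio down, Lyve1 stood at rank 9, Fcna at 18, Folr2 at 225, Cd163 at 522 and Mrc1 at 2490 of the 11074 genes. The median log2 ratio was 0.05 over all these genes and 1.22 over the 5 members.

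**Figure D1:**
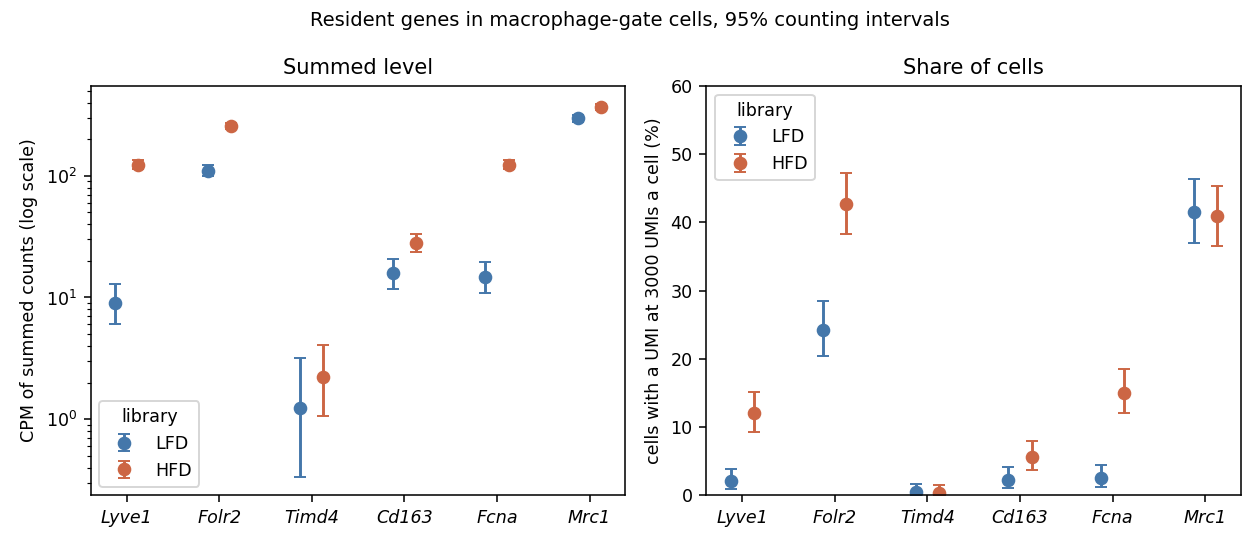
Level and detection of the 6 resident genes in macrophage-gate cells of the LFD (blue) and HFD (orange) libraries. Left, CPM of summed counts on a log axis with 95% Poisson intervals; right, percent of cells with a UMI after thinning to 3000 UMIs, with 95% exact binomial intervals. Lyve1 goes from 8.95 to 124 CPM and Fcna from 14.8 to 123 CPM, whereas the intervals of Mrc1 overlap on the right.

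The share of macrophages with each gene at equal depth gave a different picture for Folr2 and Mrc1. Folr2 was found in 24.3% of thinned LFD cells (20.4 to 28.5) and 42.7% of HFD cells (38.3 to 47.2). Mrc1 was found in 41.6% (37.0 to 46.3) and 40.9% (36.5 to 45.3), which overlap, while its mean in the cells that had it was 2.55 thinned UMIs on LFD and 3.51 on HFD. Mrc1 thus had a higher summed level on HFD in a like share of cells. Lyve1 was found in 2.02% of LFD cells (0.929 to 3.80) and 12.0% of HFD cells (9.30 to 15.2), and in the cells that had it the mean was 1.78 thinned UMIs on LFD and 4.38 on HFD. For Fcna the shares were 2.47% (1.24 to 4.38) and 15.03% (12.0 to 18.5), and for Cd163 2.25% (1.08 to 4.09) and 5.61% (3.76 to 8.01). Both the share of cells and the amount per positive cell were higher on HFD for Lyve1, whereas Cd163 had a mean of 2.30 thinned UMIs per positive cell on LFD and 1.86 on HFD.

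A few cells carried much of the rarer transcripts. Only 15 LFD cells had Lyve1, and the 10 with the most held 82.8% of its 29 UMIs. On HFD 85 cells had it, and the 10 with the most held 40.0% of the 558, with 37 UMIs in the highest cell. For Mrc1, found in 264 and 272 cells, the corresponding 10 cells held 14.3% on LFD and 13.6% on HFD. These shares depend on the number of cells with the gene.

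The levels also moved with the mitochondrial share of the cells. In HFD gate cells with 5% or more mitochondrial UMIs (389 cells), Mrc1 stood at 433 CPM (411 to 457), against 201 CPM (178 to 228) in the 151 cells under 5%. On LFD Mrc1 was at 296 CPM in both kinds of cells (406 and 137 cells). The HFD to LFD ratio of Mrc1 accordingly turned to 0.681 in cells under 5%, and that of Folr2 went to 1.23. Lyve1 had 49 UMIs (38.3 CPM) in HFD cells under 5% and 2 UMIs (2.52 CPM) in such LFD cells, and Fcna had 37 (28.9 CPM) and 3 (3.78 CPM), so both stayed higher on HFD within these cells. In cells with 5% or more, Lyve1 stood at 158 CPM on HFD and 11.0 CPM on LFD, and Fcna at 161 and 18.4 CPM. Cd163 stood at 38.1 CPM in such HFD cells against 3.12 CPM (4 UMIs) under 5%, and on LFD at 20.5 against 1.26 CPM (1 UMI). The part of the mitochondrial share in these results was not tested.

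Outside the macrophage gate, cells were placed in a class when they passed that class's marker gate alone. Among the sorted cells that passed the filters, UMIs of Folr2, Cd163 and Fcna lay almost wholly in macrophages, whereas Lyve1, Mrc1 and Timd4 were found elsewhere too. Of all UMIs in filtered cells, the gate held 92.0% on LFD and 97.6% on HFD of Folr2, 92.7% and 100% of Cd163, and 94.1% and 98.1% of Fcna. Plasma cells, antibody-secreting cells taken as a class that should lack these genes, had 0 UMIs of Cd163 and Fcna in 271 LFD cells (median 11452 UMIs) and 1210 HFD cells (median 12965.5 UMIs). There, 3 counts would be 0.901 and 0.173 CPM, and the exact intervals reach 1.11 and 0.213 CPM. Folr2 had 1 UMI in the plasma cells of each library, Lyve1 0 and 1, and Mrc1 10 and 110. HFD endothelial cells had 8 Folr2 UMIs, at most 6 in a cell, 3.43 CPM (1.48 to 6.76). Neutrophils (149 and 47 cells, median 1232 and 1016 UMIs) were too shallow to show absence. Their 0 UMIs of Folr2, Cd163 and Fcna leave exact intervals that reach 19.4 and 69.2 CPM.

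Lyve1 on LFD was found more often outside the gate than in it, with 44.6% of 65 UMIs in macrophages, against 85.2% of 655 UMIs on HFD. Stromal and mesothelial cells held 31 Lyve1 UMIs on LFD and 42 on HFD, spread over 28 and 39 cells, but among so many cells this was only 0.372 CPM (0.253 to 0.528) and 0.625 CPM (0.451 to 0.845). Among HFD cells that passed no gate or several, 43 of 52 Lyve1 UMIs lay in a single cell, picked out after its values had been seen. This cell also had 75 UMIs of Ccl21a, 12 of Mmrn1, 3 of Flt4 and 2 of Prox1, genes that define lymphatic endothelium, and 7 of Stab1. Among the other members it had 4 UMIs of Mrc1 and 0 of Folr2, Fcna and Cd163. It was the only cell of either library past the lymphatic gate, and in the macrophage gate the 5 lymphatic markers together came to 4.63 CPM on LFD and 1.55 CPM on HFD, with 3 of the 5 markers at 0 on LFD and 4 of the 5 at 0 on HFD. No macrophage-gate cell passed the lymphatic gate.

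A low level of Mrc1 UMIs was found in B cells and in plasma cells, the class taken above as one that should lack the members. No level of background RNA was measured, so these UMIs are not read as expression. B cells had 61 UMIs in 53 of 922 LFD cells, 15.4 CPM (11.7 to 19.7), and 44 UMIs in 36 of 721 HFD cells, 12.8 CPM (9.32 to 17.2), with at most 3 UMIs in a cell. Plasma cells had 10 UMIs, 3.00 CPM (1.44 to 5.52), on LFD and 110 UMIs, 6.35 CPM (5.22 to 7.65), on HFD. In macrophages there were 2.68 Mrc1 UMIs for each Folr2 UMI on LFD and 1.43 on HFD, whereas the B cells had 61 and 44 Mrc1 UMIs beside 0 and 1 of Folr2. Plasma cells had 10 Mrc1 UMIs beside 1 of Folr2 on LFD and 110 beside 1 on HFD, and stromal and mesothelial cells had 72 beside 18 and 112 beside 13.

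Among classes with any Timd4 UMI, the level was highest in dendritic cells, with 4 UMIs in 70 LFD cells, 7.83 CPM (2.13 to 20.04), and 5 UMIs in 72 HFD cells, 8.55 CPM (2.78 to 19.9). Neutrophils and the T and ILC class had 0 UMIs but could not be ranked. Their exact intervals reach 19.4 and 69.2 CPM and 8.59 and 11.3 CPM on LFD and HFD. The level in macrophages was 1.24 CPM (0.337 to 3.16) on LFD and 2.22 CPM (1.06 to 4.08) on HFD. The intervals overlap on both diets, and only a few UMIs stand behind each value. The other 5 members had at most 2 UMIs in dendritic cells of either library.

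**Figure D2:**
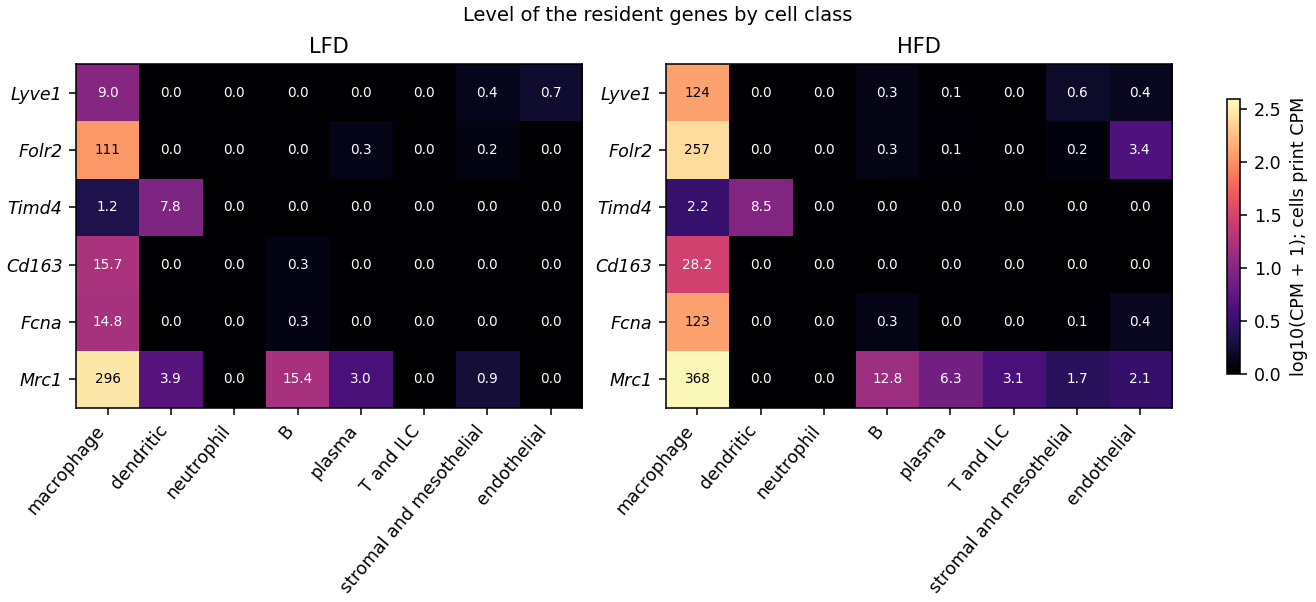
Level of the 6 resident genes (rows, CPM printed in each field, colour on a log10 scale of CPM + 1) in 8 cell classes (columns) of the LFD and HFD libraries. Outside macrophages, Folr2 is at most 3.43 CPM (HFD endothelial cells) and Cd163 and Fcna are lower, though 0 UMIs in neutrophils allow up to 19.4 and 69.2 CPM. Mrc1 is seen in B cells at 15.4 and 12.8 CPM, and Timd4 in dendritic cells at 7.83 and 8.55 CPM.

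Most macrophages had none or 1 of the members, and a smaller part had several, a trait known when the members were selected. At 3000 UMIs per cell, 69 of 445 LFD cells, 15.5% (12.3 to 19.2), and 151 of 499 HFD cells, 30.3% (26.3 to 34.5), had 2 or more of the 6 genes. For 3 or more, the shares were 2.25% (10 cells, 1.08 to 4.09) and 15.8% (79 cells, 12.7 to 19.3). Cells with none were about as frequent, 47.6% (42.9 to 52.4) on LFD and 42.7% (38.3 to 47.2) on HFD, with overlapping intervals. Cells with exactly 3 genes (0.674% on LFD, 5.61% on HFD) and exactly 4 (0.225% and 7.41%) had intervals apart between the libraries, whereas cells with exactly 2 overlapped at 13.3% (10.2 to 16.8) and 14.4% (11.5 to 17.8). Cells with exactly 1 gene went the other way, with 36.9% (32.4 to 41.5) on LFD and 27.1% (23.2 to 31.2) on HFD. Near the limit of 2 genes lay the 164 LFD and 135 HFD cells with exactly 1 gene and the 59 and 72 with exactly 2. Only 1 cell, on HFD, had all 6.

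**Figure D3:**
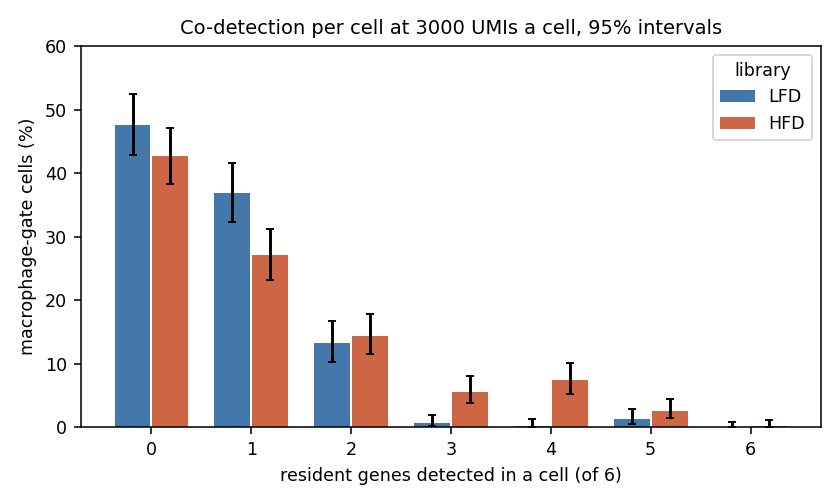
Percent of macrophage-gate cells by the number of the 6 resident genes found in the cell, after thinning to 3000 UMIs, for LFD (blue, 445 cells) and HFD (orange, 499 cells), with 95% exact binomial intervals. Cells with none or exactly 2 are about as frequent in both libraries, cells with exactly 1 are 36.9% on LFD and 27.1% on HFD, and cells with 3 or more are 2.25% on LFD and 15.8% on HFD.

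Folr2 and Mrc1 were the broad members, and the cells with Lyve1, Cd163 or Fcna lay largely among theirs. Of the cells with Lyve1, 8 of 9 on LFD and 56 of 60 on HFD also had Folr2, against 22.9% and 35.8% of cells without Lyve1. Mrc1 was in 8 of 9 and 54 of 60 cells with Lyve1. Of the cells with Fcna, 10 of 11 on LFD and 72 of 75 on HFD had Folr2, against 22.6% and 33.3% of cells without Fcna, and 8 of 11 and 67 of 75 had Mrc1. Of the cells with Cd163, 6 of 10 on LFD and 25 of 28 on HFD had Folr2, shares whose intervals overlap, and 9 of 10 and 25 of 28 had Mrc1. Taking Lyve1, Cd163 and Fcna together, 15 of 17 LFD cells with any of them (88.2%, 63.6 to 98.5) and 93 of 95 HFD cells (97.9%, 92.6 to 99.7) also had Folr2 or Mrc1.

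In the other direction the shares were lower. Among cells with both Folr2 and Mrc1 (62 on LFD, 133 on HFD), Lyve1 was found in 11.3% (4.66 to 21.9) on LFD and 38.3% (30.1 to 47.2) on HFD. Fcna was found in 12.9% (5.74 to 23.9) and 48.1% (39.4 to 56.9) of these cells, and Cd163 in 9.68% (3.63 to 19.9) and 17.3% (11.3 to 24.8), whose intervals overlap. On LFD the most frequent pattern after none was Mrc1 alone (119 cells), then Folr2 with Mrc1 (53) and Folr2 alone (43). On HFD it was Folr2 alone (69 cells), Mrc1 alone (64) and Folr2 with Mrc1 (58), followed by Lyve1, Folr2, Fcna and Mrc1 together (28 cells). On LFD, 5 cells had the 5 genes other than Timd4, and on HFD 13.

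Of the 15 pairs of members, 14 on LFD and 15 on HFD had the first gene in a larger share of cells with the second than of cells without it. The exception was Timd4 with Cd163 on LFD, where 2 and 10 cells had the genes. Without cells of another gate no LFD cell had Timd4, and all 10 pairs that could be scored on LFD and 15 of 15 on HFD had the larger share. In cells with under 5% mitochondrial UMIs (115 and 140 thinned cells), both genes were detected for only 3 pairs on LFD and 10 on HFD, of which 2 and 9 had the larger share. Over the thinned gate cells (445 and 499), Pearson's r of log thinned UMIs was 0.63 and 0.69 between Lyve1 and Fcna, and 0.28 and 0.48 between Folr2 and Mrc1. Cells of a library share its mice, sort and chemistry, so these values describe the libraries. Joint detection was known when the members were selected and no other gene pairs were scored, so nothing is read from the count of pairs.

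**Figure D4:**
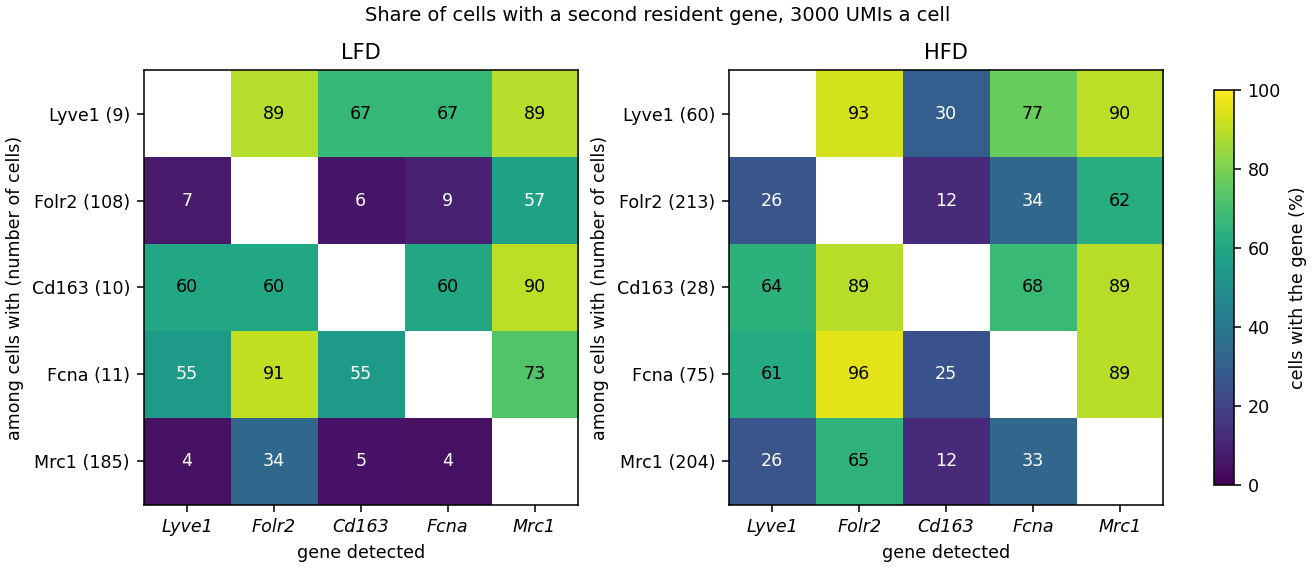
Percent of cells with a second resident gene (columns) among thinned macrophage-gate cells with a first (rows, with the number of cells in brackets) in the LFD and HFD libraries, on a colour scale from 0 to 100%. The Folr2 and Mrc1 columns are high in the Lyve1 and Fcna rows of both libraries, whereas the Lyve1 and Fcna columns are low in the Folr2 and Mrc1 rows on LFD. Timd4, with 2 cells in each library, is left out.

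What else these macrophages contained was described by comparing cells with 2 or more members (69 on LFD, 151 on HFD) with cells that had none (212 and 213), gene by gene, at equal depth. Among 5694 genes found in at least 5% of thinned cells of each library, members and gate genes aside, 178 (3.13%) were found in a share at least 10 percentage points higher in both libraries, and 130 (2.28%) in a share at least 10 points lower in both. The gate genes, which chose the cells, moved the same way, and 6 of the 7 were at least 10 points higher in both libraries in cells with 2 or more members. Adgre1 differed by 33.7 points on LFD and 28.8 on HFD, C1qc by 33.4 and 21.8, Pf4 by 29.2 and 25.8, and Cd68 by 11.2 and 0.858. The part of the general level of macrophage RNA in the differences below was not tested. Named by the smaller of their differences over the libraries, the leading genes were as follows. Wwp1, a ubiquitin ligase, was in 59.4% against 13.2% of cells on LFD and 65.6% against 13.1% on HFD. Selenop, a selenium carrier, was in 94.2% against 49.5% and 94.0% against 42.7%. Stab1, the scavenger receptor stabilin-1, was in 85.5% against 34.9% and 80.1% against 40.8%.

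F13a1, the A subunit of clotting factor XIII, was in 50.7% against 12.7% of cells on LFD and 74.8% against 8.92% on HFD. Gas6, a bridging ligand of receptors that take up dying cells, was in 47.8% against 9.91% and 57.0% against 5.63%. Fcgrt, the neonatal Fc receptor that recycles IgG and albumin, was in 50.7% against 11.8% and 75.5% against 19.2%. The other leading genes were Serpinb6a, Ptpn18, Dab2 (an endocytic adaptor), Trf (transferrin), Ms4a7 and Timp2 (an inhibitor of metalloproteinases), whose smaller difference over the libraries ranged from 32.2 to 38.9 points.

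On the other side, cells with 2 or more members less often held Cd9, a tetraspanin, which was in 40.6% against 76.9% on LFD and 41.1% against 89.7% on HFD. Il1b, the cytokine interleukin-1β, was in 11.6% against 43.9% and 5.30% against 35.2%. Hp, haptoglobin, whose complex with haemoglobin is the ligand of CD163, was in 13.04% against 55.2% and 6.62% against 34.3%. Clec4e (the receptor Mincle), F10 (clotting factor X), S100a4, Esd and Sod2 completed the list, with differences between -27.3 and -29.7 points on LFD and between -26.9 and -36.5 points on HFD. The 12 higher genes and the 8 lower ones named here still passed when cells of another gate were left out, when 163 genes were higher and 156 lower. Fewer of the cells with 2 or more members passed another class's gate (30.4% against 45.8% on LFD, 20.5% against 31.0% on HFD), and the part of these mixed cells was measured only by leaving them out.

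**Figure D5:**
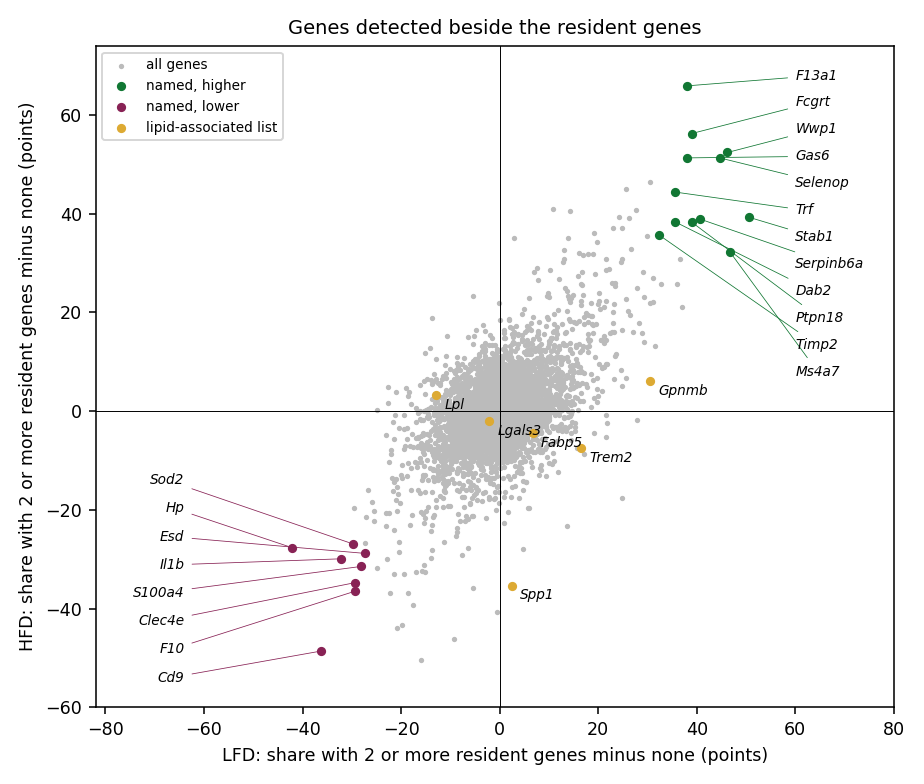
Difference in the share of thinned macrophage-gate cells with a UMI between cells with 2 or more resident genes and cells with none, in percentage points, for 5694 genes, with LFD on the horizontal and HFD on the vertical axis. The 12 higher genes named by rule (green) and the 8 lower ones (purple) differ in the same direction in both libraries; genes of the lipid-associated list other than Cd9 (yellow) share no direction, and Spp1 is at 2.58 points on LFD and -35.3 points on HFD.

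A list of 24 other genes known from resident macrophages was chosen with earlier results of these data known and holds 6 of the 12 leading genes above, so its counts are a description and no independent evidence. All 24 were measured, 16 were found in 5% of cells of each library, and 15 of these were at least 10 points higher in both libraries in cells with 2 or more members, beside 3.13% of all genes and 6 of the 7 gate genes. Among the 15, Ltc4s was at the edge, with odds ratios of 1.68 (0.930 to 3.03) on LFD and 1.53 (0.974 to 2.43) on HFD. The exception, Klf4, differed by 11.8 points on LFD and -3.89 on HFD. By diet, 7 of the 24 had a ratio of 2 or more in gate cells and 1, the scavenger receptor Marco, a ratio of 0.5 or less (36 UMIs on LFD, 18 on HFD, ratio 0.359, 0.192 to 0.649), beside 3.21% and 2.03% of all genes. The 7 were Vsig4, Cd209d, C4b, Cd209f, Cbr2, Ltc4s and Pltp. Vsig4, a complement receptor, had 5 UMIs on LFD and 97 on HFD, a ratio of 13.9 (5.77 to 43.9). It and Cd209d (9 and 49 UMIs) passed the count minimum only through the HFD library, where they are high. Marco was above that minimum only in the LFD library, where it is high, so the counts of 7 and 1 are no support. Selenop and Stab1, among those most tied to the members within a library, differed little between the diets, with ratios of 1.02 (0.983 to 1.06) and 1.098 (1.02 to 1.18). The median log2 ratio of the list was 0.38, beside 0.05 for all genes.

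Of 7 genes of alternative activation and lectins, 3 had a ratio of 2 or more, Retnla, Mgl2 and Cd209a, and 1, Ccl24, a ratio of 0.5 or less, beside 3.21% and 2.03% of all genes. Cd209a (5 and 28 UMIs) passed the count minimum only through the HFD library. Retnla, the secreted protein RELMα, had 50 UMIs on LFD and 520 on HFD, a ratio of 7.47 (5.58 to 10.2), and Ccl24, an eosinophil chemoattractant, had 227 and 104, a ratio of 0.329 (0.258 to 0.417). Among the list genes common enough to be followed by cell, Clec10a, a lectin, was higher in both libraries with the members (23.0 and 37.2 points) and Chil3 was lower in both (-15.4 and -11.1 points).

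Of 7 monocyte genes, 4 were common enough, and 3 of these, Ccr2, Il1b and Vcan, were lower in both libraries in cells with 2 or more members, beside 2.28% of all genes. Ccr2, the receptor by which monocytes enter tissue, differed by -21.4 points on LFD and -32.9 on HFD. By diet, Plac8 alone of the 7 was at 0.5 or less, beside 2.03% of all genes, with a ratio of 0.494 (0.432 to 0.566), and the list's median log2 ratio was -0.70.

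The lipid-associated genes did not go one way with the members. Of 7, Cd9 alone was lower in both libraries and 0 were higher, beside 2.28% and 3.13% of all genes. Trem2, the lipid receptor of these macrophages, differed by 16.5 points on LFD and -7.46 on HFD, Gpnmb by 30.6 and 6.13, and Spp1 (osteopontin) by 2.58 and -35.3. None of the 7 had a ratio of 2 or more or of 0.5 or less between the diets, beside 3.21% and 2.03% of all genes, and Spp1 stood at 2842 CPM on LFD and 2848 CPM on HFD. Genes of MHC class II, which present antigen, did not separate the cells at this threshold. Of 7, 6 were common enough and 0 passed in either direction, beside 3.13% and 2.28% of all genes, with medians of -4.71 points on LFD and -0.900 on HFD.

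Of 10 genes of serous cavity macrophages, which also carry Timd4 in the peritoneum, 6 had enough UMIs for a ratio. Fn1 alone was common enough to be followed by cell and was lower with the members, by -17.6 points on LFD and -39.2 on HFD. Gata6, the factor that defines the cavity cells and that mesothelial cells also express, was at 59.9 CPM on LFD and 59.8 CPM on HFD, whereas Alox15 had 0 UMIs in the gate cells of either library. Ltbp1 alone of the 6 had a ratio of 2 or more, beside 3.21% of all genes, with 1 UMI on LFD and 23 on HFD (ratio interval 2.68 to 680), and it passed the count minimum only through the HFD library.

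With the members themselves left out, the 3 transcripts most correlated over cells with each member in both libraries overlapped among Lyve1, Folr2, Cd163 and Fcna. Those of Mrc1 and Timd4 were shared with no other member. Some members were closer to each other, such as Lyve1 and Fcna (r of 0.63 and 0.69). Cbr2, a carbonyl reductase, was among the 3 most correlated genes of Lyve1 (r of 0.50 on LFD and 0.58 on HFD), Folr2 (0.42 and 0.51), Cd163 (0.42 and 0.42) and Fcna (0.50 and 0.58). Ednrb, an endothelin receptor, followed Lyve1 (0.47 and 0.52) and Fcna (0.54 and 0.57), and Ccl8, a chemokine, followed Folr2 (0.40 and 0.50) and Fcna (0.61 and 0.50). Mrc1 went with Selenop (0.62 and 0.74), Dab2 (0.49 and 0.55) and the Fc receptor gene Fcgr2b (0.52 and 0.48). The remaining places were taken by Fcgrt for Lyve1 (0.38 and 0.47) and Cd163 (0.36 and 0.33), F13a1 for Cd163 (0.45 and 0.37) and the gate gene C1qa for Folr2 (0.39 and 0.37). For Timd4 the highest values outside the members were low, with Azi2 at 0.14 and 0.14, against 0.31 and 0.17 for Timd4 with Lyve1.

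Because the cells had been sorted by the Cyp1a1 reporter, Cyp1a1 itself was looked up in the same macrophages. Gate cells had 76 Cyp1a1 UMIs on LFD, 23.5 CPM (18.5 to 29.4), and 102 on HFD, 22.6 CPM (18.4 to 27.4). Of these, 70 and 91 UMIs lay in the 26 and 30 gate cells that also passed the endothelial gate, and only 3 in each library lay in the 346 and 404 cells that passed no other gate. None of the 69 LFD or 151 HFD cells with 2 or more members had a Cyp1a1 UMI at 3000 UMIs, for which 3 cells would be 4.35% and 1.99% and the exact intervals reach 5.21% and 2.41%. These limit cells with a UMI at this depth and not cells that express the gene. Of the cells with none of the members, 8 of 212 and 8 of 213 had one, and these intervals (1.64 to 7.30% and 1.64 to 7.27%) overlap those of the cells with 2 or more. Ahr, the receptor gene, had 57 UMIs in the gate cells of each library, 17.6 CPM (13.3 to 22.8) on LFD and 12.6 CPM (9.57 to 16.4) on HFD. It was found in 1 of 69 and 8 of 151 cells with 2 or more members, against 13 of 212 and 10 of 213 with none, shares whose intervals overlap.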

How the data were processed

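Single-cell RNA of eYFP+ gWAT cells was measured in 1 library per diet (10x Genomics 3' v3). The authors deposited UMI counts (whole numbers, not normalized) for each gene in each called cell (114311020 UMIs on LFD, 119498750 on HFD). The submitters' processing notes name Cell Ranger 4.0.0, bcl2fastq 2.17.1.14, STAR, Seurat 4.1.0 and mm10. The gene annotation was not given in the sources used here. Of 32285 gene IDs, 32158 were in GENCODE M21, which gave the positions. RefSeq gave the promoter windows.

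The members and gene lists were chosen with earlier results of these data known. Cells were filtered with the thresholds of the study. Each class had a gate of fixed markers, with 3 or 4 required: B, plasma, T and ILC, dendritic, neutrophil, stromal and mesothelial, endothelial, lymphatic endothelial and mural cells. Doublets, which the study excluded, were not called. Counts were summed per library and gate, scaled to 1000000 and given exact Poisson, Clopper-Pearson or conditional binomial intervals (95%, counting error only). Beside some counts of 0, the level of 3 counts is given. Cells were thinned at random, each with its own fixed seed, to 3000 UMIs. Genes were named by rule: the 6 members, the 12 highest and 8 lowest genes by the less extreme of their differences in the libraries, the 3 most correlated genes of each member (other members left out), list genes and Ahr and Cyp1a1. The values of 1 list gene are not reported here. With 1 library per diet no test was run. Alternatives changed the gate, filters, scaling, count minimum, thinning and number of members. Computation used Python 3.11.15, numpy 2.4.6, scipy 1.17.1, pandas 2.3.3 and matplotlib 3.10.9, and was tested on simulated data.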

Additional observations from a re-analysis of the deposited data

How the results depend on the processing

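No paired analysis was possible because each diet had a single library. Between 2 and 4 of the 4 to 6 members that passed the minimum had a ratio of 2 or more under the 10 alternatives, beside 1.80% to 6.55% of all genes. The ratios of Lyve1 (11.2 to 16.0) and Fcna (7.65 to 9.11) stayed within their counting intervals under all 9 alternatives, of which leaving out shared barcodes was added after seeing the data. With under 5% mitochondrial UMIs, the Mrc1 ratio turned to 0.681, the Folr2 ratio was 1.23 and the pairs co-detected 2 of the 3 that could be scored on LFD and 9 of 10 on HFD. The share with 2 or more members was then 13.9% (8.17 to 21.6) on LFD and 20% (13.7 to 27.6) on HFD, which overlap, and the gate share was 5.21% on LFD and 4.45% on HFD, the opposite order to all filtered cells. The cause was not tested. The Folr2 ratio was 2.06 without cells of another gate, the Cd163 ratio 2.88 by per-cell CPM and the Mrc1 ratio 1.35 with 3 or more gate genes.

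The share of cells with 2 or more members moved with depth, by construction. It was 10.5% on LFD and 25% on HFD at 2000 UMIs, 22.3% and 35.3% at 5000 UMIs and 23.0% and 43.0% without thinning. It was 11.5% and 22.7% with 2 or more of Csf1r, Adgre1 and Cd68, and 2.25% and 15.8% for 3 or more members. It was higher on HFD under each alternative.

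The gate's own share of cells depended on its definition. On LFD it was 6.08% with 3 or more gate genes and 4.54% with 5 or more. With 2 or more of Csf1r, Adgre1 and Cd68 it was 6.33% on LFD and 7.84% on HFD, and without cells of another gate 3.39% and 4.73%. With 1000 to 20000 UMIs the HFD share was 7.56%.

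The companion genes numbered 337 higher and 270 lower for 3 or more members against none, 326 and 260 in the gate without C1q genes and Pf4 (added after seeing the data), and 81 lower without thinning. Without cells of another gate there were 163 higher and 156 lower, and 10 of the 10 pairs that could be scored co-detected on LFD. The 12 higher genes named passed under all 6 alternatives. Of the 8 lower ones, 7 passed at 2000 and at 5000 UMIs and 8 under the other 4.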
